A study of Rattus norvegicus with 12 samples.

Results

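The circadian clock was followed in rat lung through 10 of its genes, Arntl (also written Bmal1), Clock, Npas2, Per1, Per2, Per3, Cry1, Nr1d1, Nr1d2 and Dbp. They were found by the RefSeq accession that the array gives for each probe, and they are 10 of the 14737 genes that could be named in this way. In all, 17 probes measured them, and all 17 were detected, that is, set well above background by the scanner software on all 3 arrays of at least 1 group. Where a gene had several probes, the one with the highest mean signal stands for the gene and is called its leading probe. Lung RNA, taken from the left upper lobe, came from 12 male Sprague-Dawley rats aged 8 to 12 weeks. It was hybridised in a single colour to 12 arrays, 1 array for each rat. The 3 control rats were handled on the same schedule with air and saline. The 3 CS+LPS rats breathed cigarette smoke (CS) and received lipopolysaccharide (LPS, a bacterial endotoxin) into the trachea, which serves as a model of chronic obstructive pulmonary disease. The 3 CS+LPS+NaHS rats were in addition given NaHS, a donor of hydrogen sulfide, and the 3 CS+LPS+PPG rats propargylglycine (PPG), an inhibitor of the enzyme CTH that makes hydrogen sulfide, each injected into the abdomen before exposure. All rats were kept on a light and dark cycle and were anaesthetised with urethane for a lung function test before the lungs were taken. The time of day at which the lungs were taken is not given in the sources used here.

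In the clock of mammals, ARNTL pairs with CLOCK or its relative NPAS2, and the pair binds E-boxes and switches on the genes Per1, Per2, Per3, Cry1, Nr1d1, Nr1d2 and Dbp. The PER and CRY proteins then repress the pair that made them. NR1D1 and NR1D2 are nuclear receptors that repress Arntl and Npas2 through RORE sites, and DBP is a transcription factor that binds D-boxes in output genes and in Per genes. In tissues with a running clock, Arntl and Npas2 are therefore high at the time of day when Dbp, Per3, Nr1d1 and Nr1d2 are low, and the reverse. In the lung the clock is known for setting daily rhythms of inflammation, with the airway epithelium as one of the cell layers that carries it.

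Letters that match the kinds of site named above are shown first. The results below turn on genes that are high together and on genes that are high in opposite rats. RefSeq promoters of the rat assembly GRCr8, each reaching from 250 bases before to 50 bases after a start site, were at hand for 9 of the 10 genes (11 promoters, 2 each for Clock and Nr1d1). Both strands were searched for the E-box CACGTG, its variant CACGTT (the E'-box), the D-box TTATGTAA and the RORE core TAGGTCA, none of which overlapped another. Windows of 26 bases around each match follow, 5′ to 3′ on the strand of the gene, with the match in capitals.
Arntl, RORE core, chr1:176766303-176766328, plus strand: ggcagaaagTAGGTCAgggacggagg
Per2, D-box, chr9:99497169-99497194, minus strand: atgtgcgtcTTATGTAAagagagcga
Per2, E'-box, chr9:99497040-99497065, minus strand: cgcgcgcggtCACGTTttccactatg
Nr1d1, E-box, chr10:84229630-84229655, minus strand: tcagctcccaCACGTGtctggggatc
Nr1d1, E'-box read on the opposite strand, chr10:84231971-84231996, minus strand: catagagctcAACGTGcccgctgctg
Among 33469 promoters of the same length, the E-box was held by 6.42%, the E'-box by 4.83%, the D-box by 0.893% and the RORE core by 2.63%. The promoters of Clock, Npas2, Per1, Per3, Nr1d2 and Dbp held none of these letters in this window. A match is a description of the letters, and binding was not measured.

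Signals are given as log2 values of the background-subtracted intensity, scaled so that the 75th percentile of every array is the same. A difference of 1 on this scale is a fold change of 2. The arrays lay on 2 slides. Slide 2 held the CS+LPS arrays and control replicate 3, and slide 1 held the rest, so that a difference of either treated group from CS+LPS is also a difference between slides and these cannot be told apart. Control replicate 3 stood apart, with Pearson correlations over detected probes of 0.936 to 0.956, against at least 0.975 for pairs of the other arrays (probes are not independent replicates). Where it moved a result, the value without it is given. The markers of lung cells bore out the labelled tissue, since all 4 markers of alveolar type 2 cells, both markers of club cells and all 3 of alveolar type 1 cells were detected. In RNA of mixed lung tissue, fewer cells of a type and less RNA per cell cannot be told apart.

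**Figure D1:**
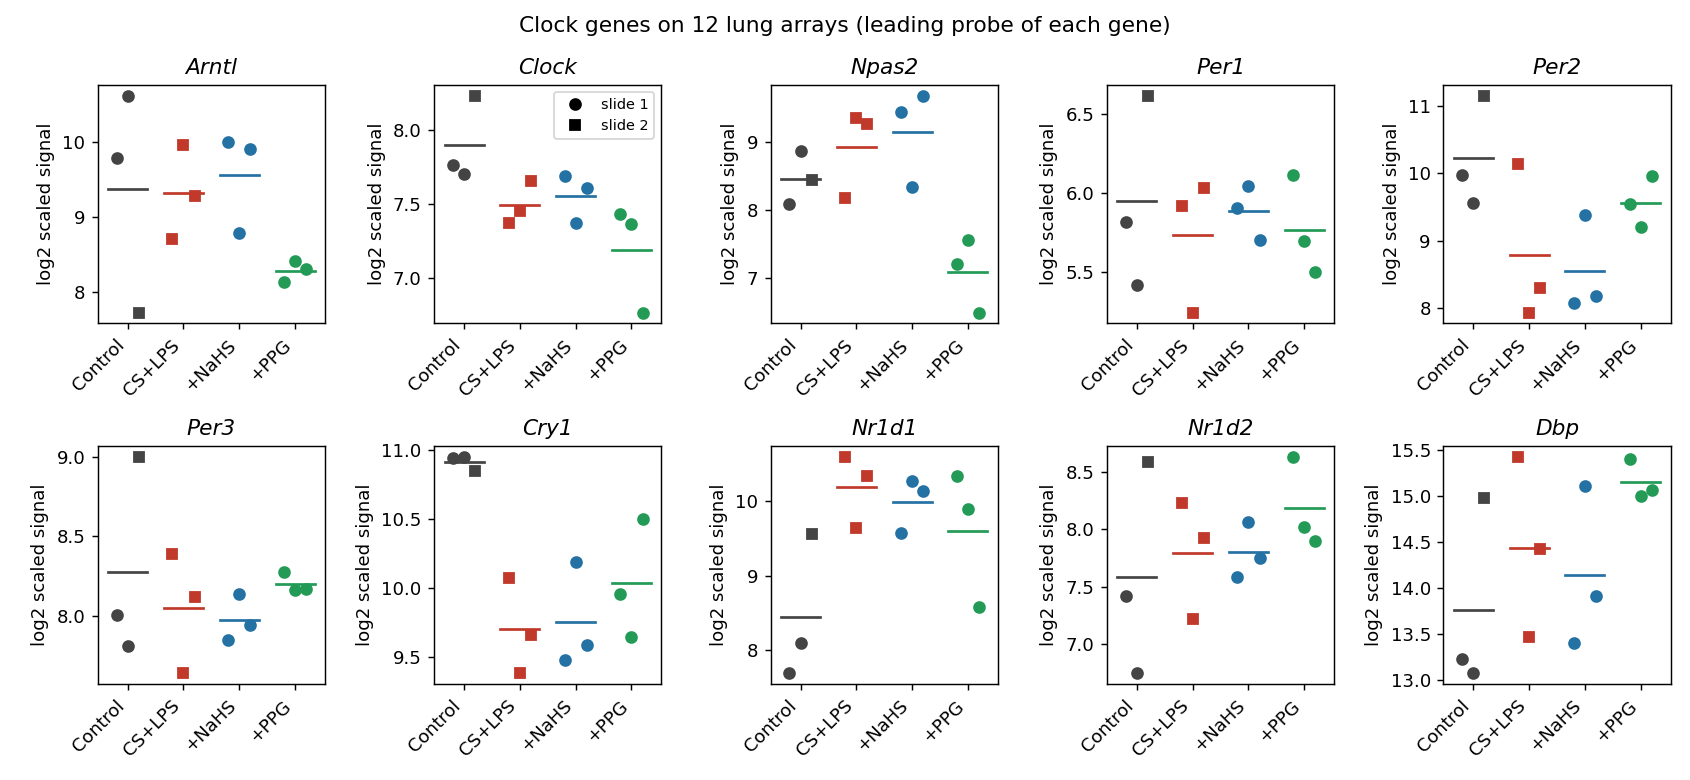
Log2 scaled signal of the leading probe of each of the 10 clock genes (vertical axis, its own range in each panel) on the 12 arrays, by group, with circles for slide 1, squares for slide 2 and a line at the mean of each group. All 9 exposed arrays lie below the 3 control arrays for Cry1, while Arntl and Dbp spread widely within the control, CS+LPS and CS+LPS+NaHS groups.

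Differences between the groups were small beside the spread between rats for most clock genes. The question of each comparison with the control group is what exposure did to the clock genes, alone or with NaHS or PPG, and that of the comparisons with CS+LPS is what NaHS or PPG changed in exposed rats. In CS+LPS against control, 1 of the 10 genes passed a Benjamini-Hochberg adjusted p of 0.05 in limma, and it was Cry1, which fell (2.1% of all 21239 detected probes passed). At an unadjusted p under 0.05 there were 3 of 10, beside 25.5% of all probes. In CS+LPS+NaHS against control, 0 of 10 passed, beside 0.122% of all probes, and 3 were at an unadjusted p under 0.05, beside 17.6%. In CS+LPS+PPG against control, 0 of 10 passed, beside 5.24% of all probes, and 4 were at an unadjusted p under 0.05, beside 29.6%. In CS+LPS+NaHS against CS+LPS, 0 of 10 passed, beside 0.739% of all probes, and 0 were at an unadjusted p under 0.05, beside 10.1%. In CS+LPS+PPG against CS+LPS, 0 of 10 passed, beside 0.589% of all probes, and 1 was at an unadjusted p under 0.05, beside 10.8%. In CS+LPS+PPG against CS+LPS+NaHS, 0 of 10 passed, as did 0% of all probes, and 1 was at an unadjusted p under 0.05, beside 8.88%. The comparisons with control share the control arrays and are not independent of each other.

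The thresholds of the study, a fold change of at least 2 with an unadjusted p under 0.05, selected more genes when applied to limma's p over the 12 arrays. They selected Per2 and Cry1 as lower and Nr1d1 as higher in CS+LPS against control (3 of 10, beside 4.6% of all detected probes), and these 3 genes in the same directions in CS+LPS+NaHS against control (3 of 10, beside 2.58%). In CS+LPS+PPG against control they selected Npas2 as lower on its leading probe and Dbp as higher (2 of 10, beside 4.3%). They selected 0 of 10 leading probes in CS+LPS+NaHS against CS+LPS (beside 1.94%), where the second Npas2 probe was selected as higher. Of the leading probes, only that of Npas2, as lower, was selected in CS+LPS+PPG against CS+LPS (beside 2.14%) and against CS+LPS+NaHS (beside 0.499%). The second Arntl probe was selected as lower in CS+LPS+PPG against control and against CS+LPS+NaHS. At the same thresholds the methods' t-test selected Cry1 alone in CS+LPS and in NaHS against control, Npas2 alone in PPG against control, no gene in NaHS against CS+LPS, and Arntl and Npas2 in PPG against CS+LPS and against NaHS. Over the 10 genes, the median size of the log2 difference from control was 0.43 in CS+LPS, 0.36 with NaHS and 0.79 with PPG, beside 0.30, 0.24 and 0.32 over all detected probes. It was 0.18 between NaHS and CS+LPS, 0.49 between PPG and CS+LPS, and 0.39 between PPG and NaHS, beside 0.16, 0.19 and 0.18 over all detected probes.

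**Figure D2:**
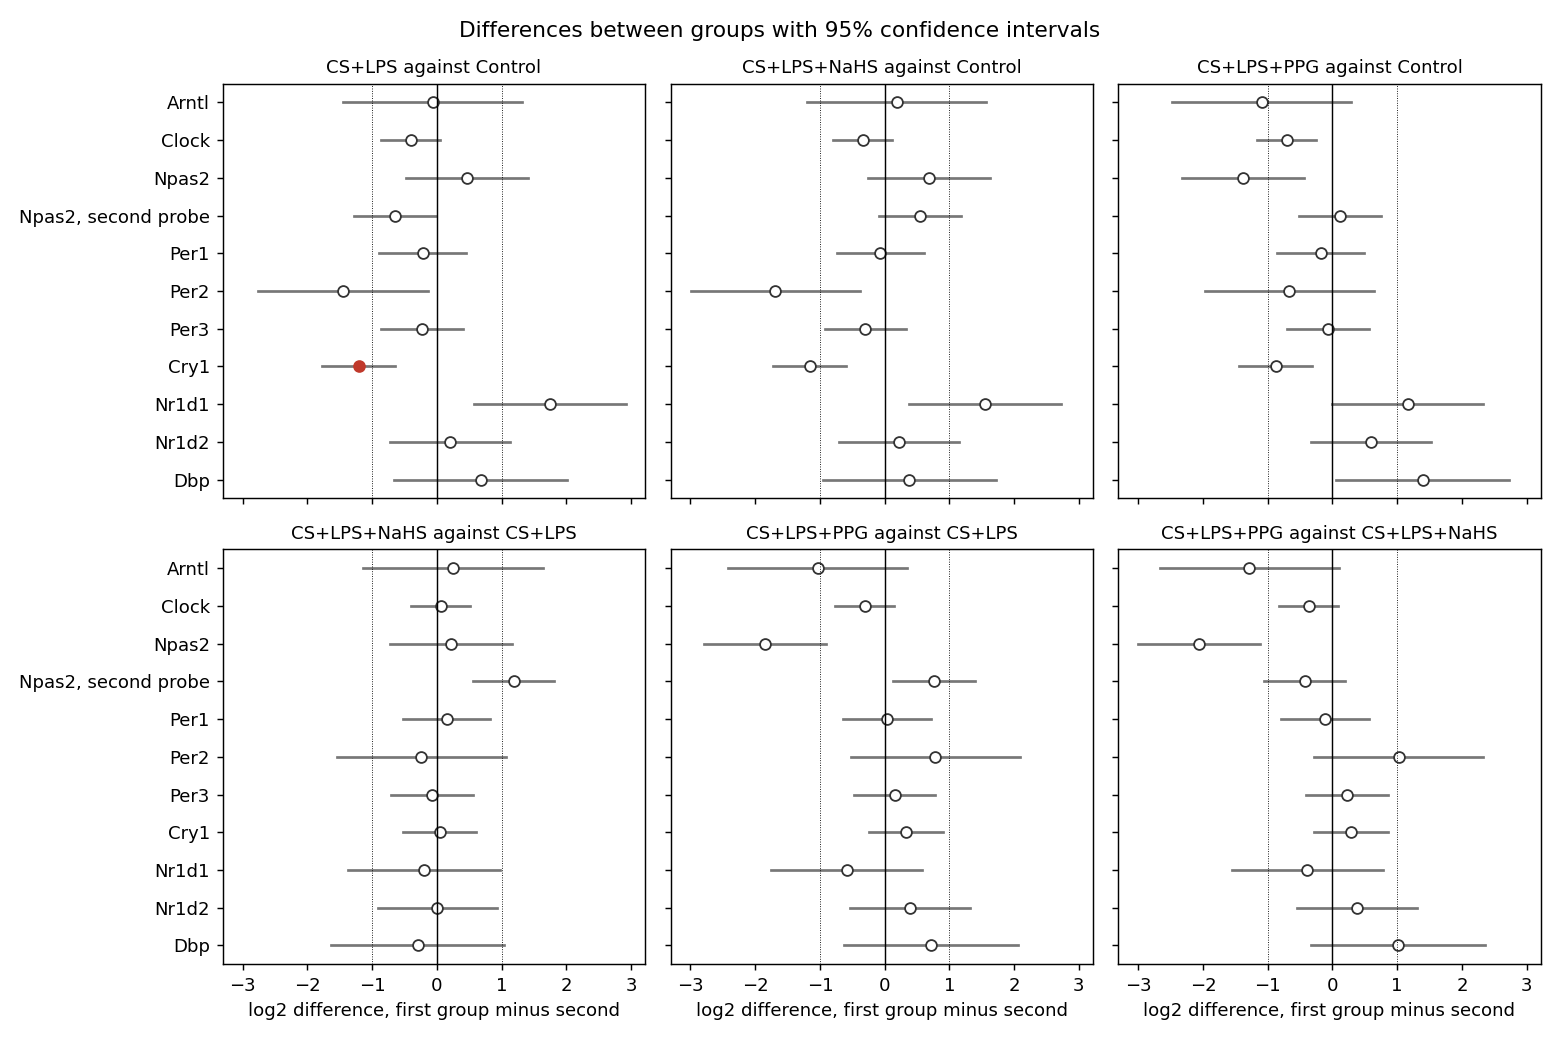
Difference in log2 signal between 2 groups (horizontal axis, first group minus second) for the leading probe of each clock gene and for the second probe of Npas2, with the 95% confidence interval from limma as a bar. The filled point, Cry1 in CS+LPS against control, is the single leading probe with an adjusted p under 0.05, and dotted lines mark a fold change of 2.

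Among the activators, Arntl had no settled difference between groups over all 12 arrays. Its SD within a group was 1.49 in control, 0.623 in CS+LPS and 0.678 with NaHS, but 0.142 with PPG. Its log2 signal was 9.80, 10.62 and 7.73 in control replicates 1 to 3, and 8.72, 9.96 and 9.28 in CS+LPS replicates 1 to 3. With NaHS it was 10.01, 8.79 and 9.91, and with PPG 8.13, 8.42 and 8.30. On this leading probe the PPG rats were the only group without a high value. All 3 of them lay below every CS+LPS and every NaHS rat but above control replicate 3. The groups did not overlap on 19.3% of all detected probes in PPG against CS+LPS and on 25.3% in PPG against NaHS. The difference of PPG from control was -1.10 (SE 0.627, adjusted p = 0.263), and that of CS+LPS from control was -0.06 (SE 0.627, adjusted p = 0.957). Without control replicate 3, Arntl differed from control by -0.89 in CS+LPS (adjusted p = 0.284) and -0.64 with NaHS (adjusted p = 0.537), whereas within slide 2, against that control alone, CS+LPS differed by 1.59 (adjusted p = 0.0744). Within slide 1, where controls 1 and 2 were compared with the 3 PPG rats, Arntl was lower by -1.92 (adjusted p = 0.0389), and without control replicate 3 in a fit of the other 11 arrays by the same -1.92 (adjusted p = 0.0457). PPG differed from NaHS, all on slide 1, by -1.28 (adjusted p = 0.582). The second Arntl probe followed the leading one over the 12 arrays (Pearson's r = 0.956 between probes) and differed by -1.44 between PPG and control (adjusted p = 0.0963). On it the PPG rats (5.78, 6.44 and 6.38) lay below all other rats, control replicate 3 (6.50) included. PPG and control did not overlap on 33.6% of all detected probes.

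Clock, the usual partner of Arntl, varied little. Its log2 signal was 7.76, 7.70 and 8.23 in control, 7.37, 7.45 and 7.65 in CS+LPS, 7.69, 7.37 and 7.61 with NaHS, and 7.43, 7.36 and 6.76 with PPG. Each exposed group lay below the control group without overlap, by -0.40 in CS+LPS (adjusted p = 0.237), -0.34 with NaHS (adjusted p = 0.397) and -0.71 with PPG (SE 0.206, adjusted p = 0.0647). None of these passed the test, and 25.5%, 25.3% and 33.6% of all detected probes did not overlap in the same comparisons. A second, dimmer Clock probe, which was not well above background in PPG replicate 3, differed by -0.40 between PPG and control (adjusted p = 0.325), but by 0.10 in CS+LPS (adjusted p = 0.823) and 0.16 with NaHS (adjusted p = 0.765), opposite in sign to the leading probe.

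Npas2, which can take the place of Clock beside Arntl, is read by 2 probes that did not agree. On the leading probe the log2 signal was 8.08, 8.87 and 8.43 in control, 8.17, 9.34 and 9.26 in CS+LPS, 9.44, 8.34 and 9.68 with NaHS, and 7.21, 7.56 and 6.48 with PPG. The 3 PPG rats lay below the 9 others. PPG did not overlap control, CS+LPS and NaHS on 33.6%, 19.3% and 25.3% of all detected probes. The difference of PPG was -1.38 from control (SE 0.427, adjusted p = 0.0741), -1.84 from CS+LPS (adjusted p = 0.116) and -2.07 from NaHS (unadjusted p = 0.000552, adjusted p = 0.554). Within slide 1 it was -1.39 from controls 1 and 2 (adjusted p = 0.107) and -2.07 from NaHS (adjusted p = 0.21).

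The second Npas2 probe gave another order of the groups. Its log2 signal was 7.52, 7.14 and 8.50 in control, 6.95, 7.08 and 7.20 in CS+LPS, 8.21, 8.20 and 8.38 with NaHS, and 8.13, 7.70 and 7.68 with PPG. Here the CS+LPS rats lay below all NaHS and PPG rats, and PPG was within the range of the controls. CS+LPS did not overlap NaHS and PPG on 20.3% and 19.3% of all detected probes. NaHS differed from CS+LPS by 1.19 (SE 0.284, adjusted p = 0.101) on this probe, against 0.23 on the leading probe, and PPG differed from control by 0.12 (adjusted p = 0.809) and from CS+LPS by 0.76 (adjusted p = 0.357), where the leading probe gave -1.84. In a fit without control replicate 3, added after the data were seen, the same differences of NaHS and PPG from CS+LPS passed on this probe (adjusted p = 0.00664 and 0.0445). CS+LPS differed from control by -0.64 (adjusted p = 0.187), by -0.26 without control replicate 3 and by -1.42 within slide 2, against that control alone (adjusted p = 0.0258). The probes did not follow each other over the 12 arrays (Pearson's r = -0.022), gave log2 differences that were up to 2.6 apart, and were opposite in sign in 3 of the 6 comparisons. Both were well above background on all 12 arrays. By contrast the probe pairs of Arntl, Per3 and Dbp correlated at 0.933 to 0.999, and those of Clock at 0.73. Which transcript each Npas2 probe reads was not tested, so no direction is given for the gene.

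**Figure D3:**
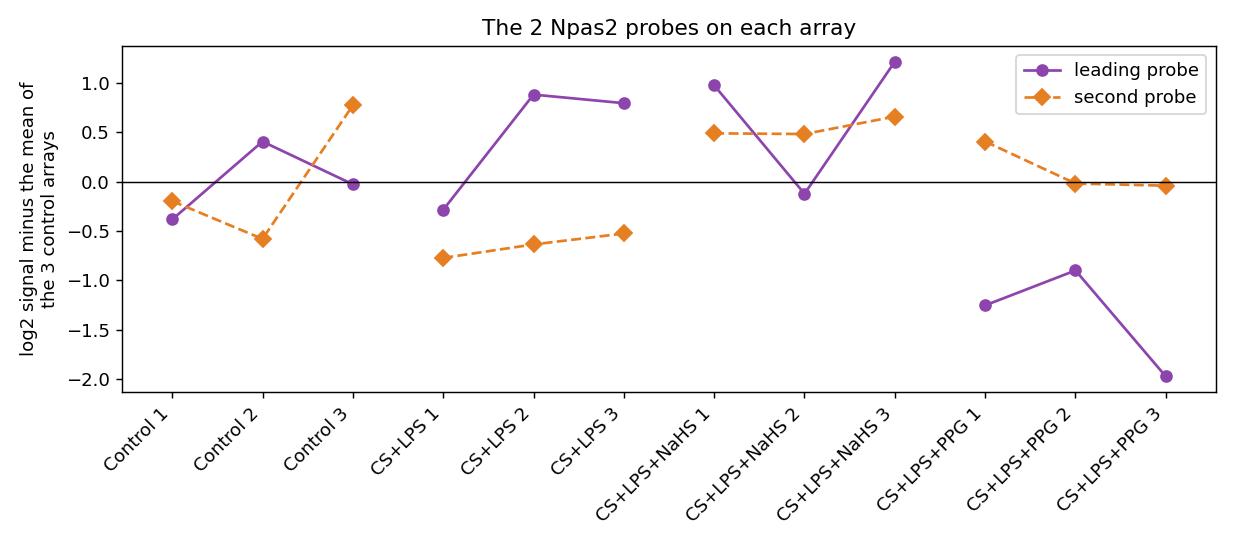
Log2 signal of the 2 Npas2 probes minus the mean of the 3 control arrays (vertical axis) on each of the 12 arrays, which are separate rats joined by lines within a group only to guide the eye. The leading probe is lowest in the 3 PPG arrays, down to -1.97, while the second probe is lowest in the CS+LPS arrays, down to -0.77.

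Of the repressors, Cry1 was the gene that separated exposed from control rats most evenly. Its log2 signal was 10.94, 10.95 and 10.85 in control, a spread of 0.0584 (SD, n = 3), and 10.08, 9.38 and 9.66 in CS+LPS. With NaHS it was 9.48, 10.19 and 9.59, and with PPG 9.96, 9.65 and 10.50. Every exposed rat lay below every control rat, control replicate 3 included. The groups did not overlap on 25.5%, 25.3% and 33.6% of all detected probes in CS+LPS, NaHS and PPG against control. The share on which every exposed rat lay below every control rat was not computed. Cry1 fell by 1.21 in CS+LPS against control (SE 0.257, 95% confidence interval -1.77 to -0.64, adjusted p = 0.0447). The differences with NaHS (-1.16, SE 0.257, adjusted p = 0.119) and PPG (-0.88, SE 0.257, adjusted p = 0.0656) did not pass. The call in CS+LPS was close to the threshold. Without control replicate 3 the difference was -1.24 and the adjusted p 0.0704, and the call was also lost without control replicate 1 or CS+LPS replicate 2 or 3. Over these leave-one-out fits, the difference stayed between -1.39 and -1.04. Within slide 2, where the 3 CS+LPS rats could be set only against control replicate 3, it was -1.14 (adjusted p = 0.0641).

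Per2, a repressor that is also known as a target of glucocorticoids, spread over more than 3 log2 units. Its log2 signal was 9.97, 9.57 and 11.15 in control, 10.13, 7.93 and 8.29 in CS+LPS, 8.08, 9.38 and 8.17 with NaHS, and 9.54, 9.20 and 9.96 with PPG. In the CS+LPS group replicate 1 was as high as the controls while the others were low, and in the NaHS group replicate 2 was the highest. The difference from control was -1.45 in CS+LPS (SE 0.592, adjusted p = 0.165), -1.69 with NaHS (adjusted p = 0.207) and -0.67 with PPG (adjusted p = 0.471). Without control replicate 3, the highest array, these were -0.99, -1.23 and -0.21, and none passed.

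Per3 moved over a narrower range. Its leading probe gave 8.01, 7.81 and 9.004 in control, 8.39, 7.64 and 8.12 in CS+LPS, 7.85, 8.14 and 7.94 with NaHS, and 8.27, 8.16 and 8.17 with PPG. The groups overlapped except PPG and NaHS, where the PPG rats were all above the NaHS rats by a small margin (0.23, SE 0.285, adjusted p = 0.846). PPG and NaHS did not overlap on 25.3% of all detected probes. With control replicate 3 left out, Per3 differed from control by 0.14 in CS+LPS, 0.07 with NaHS and 0.29 with PPG, and none passed. Per1 was the dimmest of the genes, close to background, and was not well above it in control replicate 2. Its log2 signal ranged from 5.24 to 6.62 over the 12 arrays, the highest in control replicate 3, and every adjusted p was at least 0.654.

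The nuclear receptors of the second loop did not move alike. Nr1d1 was 7.69, 8.09 and 9.56 in control, 10.60, 9.64 and 10.34 in CS+LPS, 9.57, 10.27 and 10.14 with NaHS, and 10.34, 9.90 and 8.58 with PPG. The CS+LPS and NaHS rats all lay above the 3 controls, control replicate 3 by a small margin, whereas PPG replicate 3 lay below that control. CS+LPS and NaHS did not overlap control on 25.5% and 25.3% of all detected probes. The difference from control was 1.75 in CS+LPS (SE 0.53, adjusted p = 0.0959), 1.55 with NaHS (adjusted p = 0.201) and 1.16 with PPG (adjusted p = 0.172). Control replicate 3 decided the first of these. Without it Nr1d1 was higher by 2.30 in CS+LPS (adjusted p = 0.0491), and within slide 2, against that control alone, by 0.64 (adjusted p = 0.3). Within slide 1, NaHS differed from controls 1 and 2 by 2.10 (adjusted p = 0.124) and PPG by 1.71 (adjusted p = 0.0756).

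Nr1d2 was 7.42, 6.75 and 8.58 in control, 8.22, 7.22 and 7.93 in CS+LPS, 7.58, 8.07 and 7.75 with NaHS, and 8.63, 8.02 and 7.90 with PPG. All groups overlapped the control group because of control replicate 3. The differences from control were 0.21, 0.22 and 0.60 for CS+LPS, NaHS and PPG, and their adjusted p-values lay between 0.357 and 0.805. Without that control they were 0.71, 0.72 and 1.10, and none passed. Set against that control alone, within slide 2, CS+LPS differed by -0.79 (adjusted p = 0.221). Within slide 1, PPG differed from controls 1 and 2 by 1.10 (adjusted p = 0.0636).

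Dbp, the output gene of the set, gave 13.23, 13.08 and 14.98 in control, 15.43, 13.47 and 14.43 in CS+LPS, 13.41, 15.11 and 13.92 with NaHS, and 15.40, 15.00 and 15.07 with PPG. The 3 PPG rats, CS+LPS replicate 1, NaHS replicate 2 and control replicate 3 lay between 14.98 and 15.43, and the other 6 rats at 14.43 or less. PPG differed from control by 1.39 (SE 0.606, adjusted p = 0.156), and the difference of CS+LPS was 0.68 (adjusted p = 0.479). Without control replicate 3 the difference of CS+LPS was 1.29 (adjusted p = 0.239) and that of NaHS 0.99 (adjusted p = 0.454), while within slide 2 CS+LPS differed from that control by -0.54 (adjusted p = 0.609). Within slide 1, Dbp was higher in PPG than in controls 1 and 2 by 2.00 (adjusted p = 0.0449). In the fit of all arrays but control replicate 3 this difference was the same 2.00 with an adjusted p of 0.0731, so the call depended on which arrays gave the spread. The other 2 Dbp probes followed the leading one with r of 0.996. In PPG against control they differed by 1.33 and 1.37 (unadjusted p = 0.0581 and 0.0516 in limma). The thresholds of the study thus selected neither of them there, and both overlapped the controls.

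The clearest pattern lay between rats of the same group rather than between groups. The SD within groups, pooled over the 4 groups, was 0.879 for Arntl, 0.849 for Dbp, 0.829 for Per2 and 0.739 for Nr1d1, beside a median of 0.255 over all detected probes. All 10 clock genes lay above that median, and 6 of them above the 90th percentile of 0.565. Arntl stood at the 97.3rd percentile, Dbp at the 97.0th and Clock, the lowest, at the 51st. Part of this spread came from control replicate 3. Without it the SD was 0.545 for Arntl (93.9th percentile), 0.712 for Dbp (97.2nd), 0.777 for Per2 (97.8th) and 0.227 for Per3 (58.8th).

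Rats with high Arntl had low Dbp, Nr1d2 and Per3. The values of Arntl and Dbp fell largely into a high and a low set of 6 arrays each, and r within these sets is given with the heart muscle markers. Over the 12 arrays, Arntl and Dbp had a Pearson's r of -0.909 (permutation p = 0.00022, adjusted over 10 relations 0.00073) and a Spearman's rho of -0.776 (permutation p = 0.0041, adjusted 0.014). For Nr1d2, r was -0.905 (permutation p = 3e-05, adjusted 3e-04) and rho -0.867 (permutation p = 5e-04, adjusted 0.0025). For Per3, r was -0.829 (permutation p = 0.00013, adjusted 0.00065) and rho -0.937 (permutation p = 4e-05, adjusted 4e-04). Without control replicates 2 and 3, the arrays farthest from the median of Arntl, r was -0.932 for Dbp, -0.834 for Nr1d2 and -0.818 for Per3. Within the 8 arrays of slide 1, r was -0.957, -0.875 and -0.970, and the 4 arrays of slide 2 are too few for a value. After the mean of its group was subtracted from each array, r was -0.924, -0.934 and -0.961, so the relation lay within groups. Arntl and Per3 were on opposite sides of their group means on 12 of 12 arrays, as were Arntl and Nr1d2, and Arntl and Dbp on 11. Deviations from the mean of 3 arrays are tied to each other, so such counts are not counts of independent arrays. Some deviations were small, as in PPG replicate 3 (0.019 for Arntl and -0.033 for Per3). The arrays share the treatment of their group, and the relations were computed with the pattern already known.

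The other members had values of r nearer to 0 over all 12 arrays. Npas2, on its leading probe, was higher where Arntl was higher (r = 0.686, permutation p = 0.014, adjusted 0.034, and rho = 0.699, permutation p = 0.014, adjusted 0.034), with r = 0.849 without the 2 farthest arrays and 0.818 within slide 1. Its second probe did not share this, with r = -0.352 (permutation p = 0.26, adjusted 0.32) and rho = -0.287 (permutation p = 0.37, adjusted 0.46). For Per2, r was -0.61 (permutation p = 0.036, adjusted 0.06) and rho -0.559 (permutation p = 0.062, adjusted 0.1), and r was -0.666 without the 2 farthest arrays but -0.368 within slide 1. Per1 gave r = -0.611 (permutation p = 0.032, adjusted 0.06) and rho = -0.566 (permutation p = 0.059, adjusted 0.1), but r was -0.287 without the 2 farthest arrays, so that the relation over all arrays rested on them. Nr1d1 gave r = -0.385 (permutation p = 0.21, adjusted 0.31), with rho = -0.252 (permutation p = 0.43, adjusted 0.47). Cry1 gave r = -0.121 (permutation p = 0.7, adjusted 0.7), with rho = -0.231 (permutation p = 0.47, adjusted 0.47). Clock gave r = 0.158 (permutation p = 0.64, adjusted 0.7), with rho = 0.35 (permutation p = 0.26, adjusted 0.38), and without the 2 farthest arrays r was 0.678. After group means were subtracted, r was -0.86 for Per1, -0.828 for Per2 and -0.701 for Nr1d1, which lay opposite to Arntl about the group mean on 11, 9 and 10 of 12 arrays. It was -0.338 for Cry1, -0.335 for Clock, 0.50 for Npas2 and -0.751 for its second probe. Without control replicate 3 these group-centred values were -0.702 for Per1, -0.857 for Per2, -0.39 for Nr1d1, -0.705 for Cry1, 0.249 for Clock, 0.836 for Npas2 and -0.113 for its second probe.

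**Figure D4:**
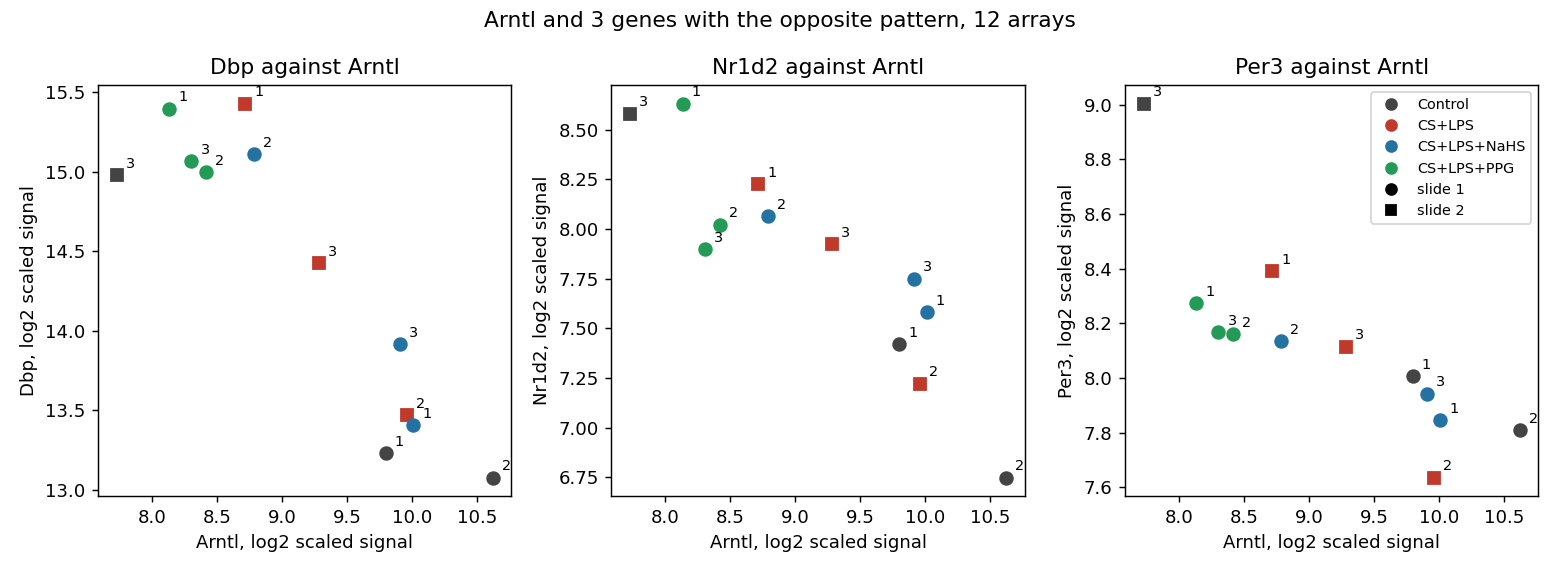
Log2 scaled signal of Dbp, Nr1d2 and Per3 (vertical axes) against that of Arntl (horizontal axis) on 12 arrays, coloured by group, with the replicate number beside each point, circles for slide 1 and squares for slide 2. In each panel the 3 PPG arrays, control replicate 3, CS+LPS replicate 1 and NaHS replicate 2 lie at low Arntl, and control replicate 2 lies at the highest Arntl, 10.62.

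Markers of heart muscle moved with this pattern. A sleeve of heart muscle surrounds the pulmonary veins of rodents, so heart muscle transcripts can be present in lung samples. All 4 markers on the list (Myh6, Tnnt2, Tnni3 and Actc1) were detected. Their signals were added before the log2 was taken, so that the brightest marker counts most. The log2 of this summed signal was 12.78, 12.61 and 15.96 in control, 15.10, 13.39 and 13.41 in CS+LPS, 13.35, 15.19 and 13.95 with NaHS, and 15.45, 14.73 and 15.23 with PPG. The arrays fell into a set of 6 at 14.73 or more and a set of 6 at 13.95 or less. Over the 12 arrays the sum had a Pearson's r of -0.932 with Arntl and 0.919 with Dbp, which was not tested. As with the r of Arntl and Dbp, the gap between the sets enters these values. The 6 arrays with the higher sums were the 6 with the lowest Arntl (7.73 to 8.79, against 9.28 to 10.62) and the 6 with the highest Dbp (14.98 to 15.43, against 13.08 to 14.43). Myh6, a motor protein of heart muscle, was well above background on 9 of the 12 arrays, and ranged from 3.41 in control replicate 1 to 14.80 in control replicate 3. None of the 4 markers passed the adjusted test in any of the 6 comparisons. Since Arntl and Dbp split into the same sets, their relation was also computed within each set. Within the 6 arrays of higher sums, r of Arntl was 0.337 with Dbp, -0.633 with Nr1d2 and -0.729 with Per3 (rho 0.486, -0.429 and -0.657). Within the 6 of lower sums it was -0.814, -0.878 and -0.639 (rho -0.657, -0.714 and -0.829). None of these 6 relations passed an exact permutation test after adjustment (smallest adjusted p = 0.158 for r and 0.262 for rho). The sets of the sums also separate low from high Arntl and Dbp, so both genes span a narrower range within each set. With 6 arrays a set, these r-values cannot decide whether the relation over all arrays rests on the sets alone. The part of heart muscle in the Arntl and Dbp values was not tested.

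**Figure D5:**
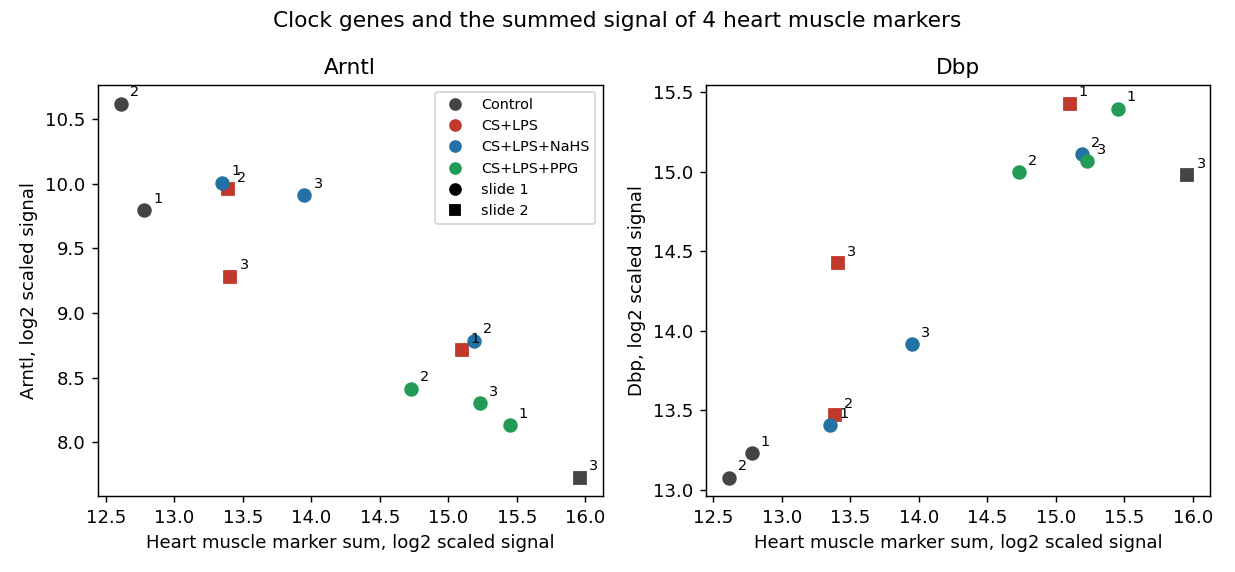
Log2 scaled signal of Arntl (left) and Dbp (right) on the vertical axes against the log2 of the summed signal of 4 heart muscle markers on the horizontal axis, for 12 arrays coloured by group, with the replicate number beside each point, circles for slide 1 and squares for slide 2. The 6 arrays with a marker sum of 14.73 or more hold the 6 lowest Arntl and the 6 highest Dbp values.

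Fat markers were also uneven. On the list of Adipoq, Plin1, Cidec and Fabp4, 3 of 4 were detected. The log2 of their summed signal was 10.95 to 12.01 in the PPG rats and 12.79 in control replicate 3, against 9.13 to 10.21 on the other 8 arrays. Adipoq, the adipocyte hormone, was well above background on 6 arrays. Neutrophil markers (4 of 5 detected) summed to 12.83 to 14.14 in control and to 13.89 to 15.07 over the exposed arrays, and macrophage markers (2 of 3 detected) to 11.91 to 12.80 and 13.45 to 14.14. The macrophage sum was thus higher on all 9 exposed arrays, those on which Cry1 was lower. Of its 2 markers, Cd68 passed in CS+LPS (1.37, adjusted p = 0.0284) and PPG (1.34, adjusted p = 0.023) against control, and Mrc1 did not (adjusted p = 0.246 and 0.338). In these comparisons the neutrophil marker Fcnb (adjusted p = 0.045 and 0.0398) and the alveolar type 2 marker Lamp3 (adjusted p = 0.0456 and 0.0179) were also higher. The other neutrophil and alveolar type 2 markers did not pass. Endothelial markers (2 of 2 detected) summed to 15.07 to 15.55 in control and to 14.35 to 14.85 over the exposed arrays. Pecam1, by far the brighter of the 2, fell in PPG against control (-0.81, adjusted p = 0.0248). Cdh5 differed from control by -0.39 in CS+LPS, 1.10 with NaHS and 0.05 with PPG, and none passed. It was higher in NaHS than in CS+LPS (1.49, adjusted p = 0.0475), which lay on different slides. The part of these cells in the Cry1 difference was not tested.

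The genes most like Arntl over the 12 arrays, among 10234 genes well above background on every array, were Foxs1 (r = 0.913), Irs3 (0.905), Sirt7 (0.886), Nfil3 (0.878) and Wfdc1 (0.861). Nfil3 encodes a repressor that binds the same D-boxes as DBP. The genes most opposite to Arntl were Trdn (r = -0.949), Dbp (-0.909), Fitm1 (-0.908), Tnnt2 (-0.906) and Nr1d2 (-0.905). Dbp and Nr1d2 are members of the set, while Trdn, a calcium release protein of striated muscle, and Tnnt2, the heart troponin T, are muscle genes. Trdn gave 6.73, 6.39 and 9.76 in control, 8.30, 7.08 and 7.29 in CS+LPS, 6.65, 8.64 and 7.51 with NaHS, and 8.69, 8.23 and 8.81 with PPG. These r-values describe the arrays and were not tested.

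Of 23 other clock genes on a fixed list, 15 were named on the array and all 15 were detected. The rest of the list had no probe named by accession. None of the 15 passed the adjusted limma test in any comparison, and at an unadjusted p under 0.05 the counts were 4 in CS+LPS, 1 with NaHS and 2 with PPG against control, all lower (beside 25.5%, 17.6% and 29.6% of all probes). Csnk1d, a kinase that marks PER proteins for decay, came nearest, at -0.59 in CS+LPS against control (SE 0.137, adjusted p = 0.0541), while its other probe gave -0.09 (adjusted p = 0.683). The D-box factor Tef differed by -0.90 (adjusted p = 0.116) and the deubiquitinase Usp2 by -0.38 (adjusted p = 0.153) in the same comparison. Nfil3 differed by -0.85 in PPG against control (adjusted p = 0.0884), with 7.91, 7.83 and 7.60 in the PPG rats and 8.64, 9.28 and 7.97 in the controls. The repressors Cry2 and Bhlhe40 had adjusted p-values of at least 0.331 against control. Ciart, a repressor of the ARNTL and CLOCK pair, was well above background on 1, 2, 1 and 3 arrays of the control, CS+LPS, NaHS and PPG groups. Its log2 signal was 8.26 in control replicate 3, 7.95 in CS+LPS replicate 1, 6.21 in NaHS replicate 2 and 6.15 to 6.80 in the PPG rats, and at most 5.22 on the other arrays, which again singled out the arrays with low Arntl.

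The last list held 14 genes known as clock outputs or as genes induced by glucocorticoids, the adrenal hormones whose daily rhythm sets clocks in the body, and all 14 were detected. In PPG against control 2 of them fell (beside 5.24% of all probes called), Pdk4, a kinase that limits glucose oxidation (by 1.98 on the log2 scale, SE 0.412, adjusted p = 0.0327), and Errfi1, an inhibitor of EGF receptor signalling (by 1.59, SE 0.243, adjusted p = 0.018). Pdk4 was not well above background in PPG replicate 3. No gene of the list passed in the other 5 comparisons. At an unadjusted p under 0.05 there were 9 in CS+LPS, 10 with NaHS and 9 with PPG against control, beside 25.5%, 17.6% and 29.6% of all probes. Of these 8, 9 and 8 were lower and 1 was higher in each. By sign alone, 12, 12 and 10 of the 14 genes were lower and 2, 2 and 4 were higher. Mt1 was higher than control by 0.77 in CS+LPS (adjusted p = 0.0874), 0.81 with NaHS (adjusted p = 0.145) and 0.61 with PPG (adjusted p = 0.109). Sgk1 differed from control by 0.17, 0.14 and -0.07 in the same order, and none passed. The median log2 difference of the list from control was -0.69 in CS+LPS, -0.64 with NaHS and -0.80 with PPG, beside -0.06, 0.02 and -0.00050 over all detected probes. Fkbp5, which restrains the glucocorticoid receptor, gave 13.92, 13.14 and 13.18 in control and between 10.78 and 12.80 in the exposed rats, and differed by -1.78 in CS+LPS (SE 0.45, adjusted p = 0.066), -1.64 with NaHS (adjusted p = 0.145) and -1.21 with PPG (adjusted p = 0.111). Tsc22d3, the glucocorticoid-induced leucine zipper, differed by -0.98 (adjusted p = 0.0674), -1.20 (adjusted p = 0.112) and -0.94 (adjusted p = 0.0537). Zbtb16 differed by -3.69 in CS+LPS (SE 1.04, adjusted p = 0.0826), with 9.47, 8.96 and 9.70 in control and 8.31, 3.81 and 4.94 in CS+LPS, where replicate 2 was not well above background. The cell cycle kinase Wee1, a clock output, had adjusted p-values of at least 0.285 against control. For Fkbp5 and Zbtb16, as for Cry1, the 3 control rats all lay above the 9 exposed rats, whereas for Arntl and Dbp the control rats spanned most of the range of the 12 arrays. In the single comparisons with control, 25.5% (CS+LPS), 25.3% (NaHS) and 33.6% (PPG) of all detected probes did not overlap.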

How the data were processed

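Lung RNA was labelled with Cy3. Intensities that the authors deposited are the linear processed signals of each spot, from which Feature Extraction 10.7.3.1 had taken the background, rounded in 3 files. The authors also deposited 5 lists of differentially expressed probes with 60 columns of values per array, which were not used here. Processed signals were turned into log2 values and scaled to the 75th percentile of each array. Spots marked as outliers were dropped and repeated spots averaged. Of 30367 probes, 21239 detected ones were kept. Symbols came from RefSeq accessions (17514 probes matched) in RefSeq genes of assembly GRCr8, used for names and promoters. The linear model of limma 3.58.1 (R 4.3.3 with the package data.table, version 1.17.8) was fitted to all 12 arrays with group as the factor, two-sided, with Benjamini-Hochberg adjustment over all detected probes, and 6 comparisons were read from it. Correlations used 100000 permutations of the arrays. Fits were tested on simulated data. Members and gene lists were chosen with earlier results of these data known. Named genes are every member, the listed clock and glucocorticoid genes that were called or singled out by the list, and the 5 genes most and least correlated with Arntl. Mt1 and Sgk1 are named as listed genes that were higher in CS+LPS than in control. Nothing in the labels says more than that replicates are separate rats, and 3 arrays per group limit the precision. Alternatives were normexp background correction (offset 50), quantile normalization, other percentiles and filters, keeping outlier spots, blocks for slide or replicate number, arrays of 1 slide, only the groups compared, array weights, the methods' t-test, means over probes, and leaving out each array. Figures were drawn with matplotlib.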

Additional observations from a re-analysis of the deposited data

How the results depend on the processing

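Counts of clock genes that passed the adjusted test were recomputed under every alternative. In CS+LPS against control the count of 1 became 0 with quantile normalization, with no filter on dim probes, with the replicate block, with only the 2 groups compared, with the methods' t-test after adjustment, and with the arrays of slide 2 only. It became 2 with array quality weights (Cry1 and Nr1d1) and 5 with slide as a block (Arntl, Clock, Per2, Per3 and Cry1), and by the study's rule it was 3. In CS+LPS+NaHS against control the count of 0 became 3 with array weights, 3 by the study's rule and 1 by the methods' t-test at the study's thresholds. In CS+LPS+PPG against control it became 1 with slide as a block, 6 with array weights, 2 with the arrays of slide 1 only, 2 by the study's rule and 1 by the methods' t-test at those thresholds. In CS+LPS+NaHS against CS+LPS it became 2 with slide as a block. In CS+LPS+PPG against CS+LPS it became 3 with slide as a block, 1 by the study's rule and 2 by the t-test at its thresholds, and in CS+LPS+PPG against CS+LPS+NaHS 1 and 2 by these last rules. Leaving out each array in turn gave 0 to 1 in CS+LPS against control and 0 to 1 in CS+LPS+PPG against control, and 0 in the other comparisons. Without control replicate 3 the single call was Nr1d1 in the first and Arntl in the second.

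Slide as a block turned the direction of Arntl in CS+LPS against control (1.59) and of Arntl (-2.23) and Per3 (1.02) in CS+LPS+NaHS against CS+LPS. It also turned values that passed no test, namely Nr1d2 (-0.79) and Dbp (-0.54) in CS+LPS against control, Arntl (-0.64), Per1 (0.27) and Per3 (0.07) with NaHS and Per1 (0.15) and Per3 (0.29) with PPG against control, Per2 (1.14), Cry1 (-0.05), Nr1d1 (1.46) and Dbp (1.53) in NaHS against CS+LPS, and Clock (0.20) and Nr1d1 (1.08) in PPG against CS+LPS. In that fit the slides are joined through control replicate 3 alone, the array with the lowest weight (0.105). Arrays of 1 slide gave no value for NaHS or PPG against CS+LPS. The cause of the other changes was not tested. The replicate numbers did not pair the rats, since same-numbered rats correlated at -0.309 to 0.139 in their deviations and 2 of 18 pairs were over 0.1. The replicate block left 0 calls in all 6 comparisons. Normexp correction used the median signal, because the files hold no mean signal. It moved the median of all probes in CS+LPS against control from -0.06 to -0.16, and Cry1 was still called. The fit without control replicate 3 in comparisons of exposed groups was added after seeing the data and changed no count of genes by their leading probes, though the second Npas2 probe passed there in NaHS and in PPG against CS+LPS.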
